A study of Danio rerio with 36 samples.

Results

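The long arm of zebrafish chromosome 4 is described here by the 1396 genes whose first annotated position lies on chromosome 4 at or beyond base 35000000, of 32520 genes counted in the series (4.29%). Their starts run from 35083725 to the end of the arm, where the last gene ends at 78068331, in the coordinates of the authors' count tables, for which the labels name the GRCz11 build. The other 984 genes of chromosome 4 lie before that base. The rule takes genes by position alone and uses no expression value, but the arm was chosen with earlier results of these data known. The nearest genes outside the limit were si:dkey-146m20.1 (start 34853066) and ENSDARG00000114783 (start 34860183), and the first genes inside it were ENSDARG00000117809 (start 35083725) and si:dkey-279j5.1 (start 35130120).

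As background, this arm is an unusual piece of the zebrafish genome. It is rich in repeats, replicates late, is largely heterochromatic, and carries large families of duplicated genes, among them C2H2 zinc finger genes, which encode DNA-binding proteins, and NLR genes, which encode intracellular sensors related to those of innate immunity. Laboratory strains and individual fish differ in the copies that they carry there, and near-identical copies can share or lose reads in counting.

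RNA was sequenced from sgsh fish, which are homozygous for the sgshΔex5-6 allele in the TU background, and from wild-type fish. sgsh encodes N-sulfoglucosamine sulfohydrolase, the lysosomal enzyme deficient in mucopolysaccharidosis type IIIA, and lies on chromosome 22. The 36 libraries form 12 groups of 3: sgsh and wild type at 24 hpf (whole embryos, 50 per pool), at 5 dpf (larval heads, 50 per pool), at 3 months and at 18 months (brains, 3 per pool), and at 2 months (brains, 3 per pool) both with and without the stable transgene Tg(-3.5ubb:mTagBFP2-T2A-sgsh), in which a ubiquitin promoter drives sgsh together with a blue fluorescent protein. Fish with the transgene are called Tg. Whether the 2 genotypes of a stage came from the same parents is not given in the sources used here, nor is the number of founders behind the transgenic line, and the pools were made without regard to sex. The libraries of 24 hpf, 3 months and 18 months share one count table, and those of 5 dpf and 2 months were counted separately. The settings behind the shared table are not fully stated, so levels set across the 2 sets of libraries may differ in processing as well as in stage.

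Total counts per library ran from 16200025 to 26038889. The sgsh gene itself had 126 to 141 counts in sgsh heads, against 230 to 278 in wild-type heads, and 45 to 93 in the sgsh brains without the transgene, against 92 to 154 in their wild-type counterparts, so these libraries fit their labels. It did not separate the genotypes at 24 hpf (167 to 206 in sgsh, 181 to 223 in wild type) or among Tg brains (1834 to 2755 in sgsh, 2496 to 3585 in wild type). Levels in CPM are counts scaled to the library total after TMM adjustment, a scaling between libraries that was made within each set of libraries. The 9 neuronal markers (elavl3, snap25a and others, 9 of 9 found) summed to 5720 to 8280 CPM in the adult brains, against 579 to 623 CPM in the whole embryos. In pools of tissue, fewer cells of a type and less RNA per cell cannot be told apart, which holds for each difference below.

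The arm holds 3.08% of the protein-coding genes of the table (783 of 25432) but 61.4% of its snRNA genes (332 of 541) and 32.7% of the genes with a zinc finger symbol (124 of 379). A further 600 genes carry a clone name or no symbol, 58 carry another gene name, 199 are long non-coding transcripts, 39 are pseudogenes and 37 are rRNA genes. Few of the members can therefore be tied to a known role, and by symbol only 1 was an NLR gene. At least 1 read was counted for 74.2% of the members across the 36 libraries, against 93.6% of all genes. Those without a count were mostly small RNA genes, since only 53 of the 332 snRNA genes and 15 of the 37 rRNA genes had any count, while each of the 124 zinc finger genes had at least 1. Of the members, 206 bear the symbol U6 and 126 the symbol U1. Near-identical copies can lose reads in counting, so the lack of counts does not show that these genes are silent.

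Few long-arm genes were on at any stage. A gene is called on in a group when it has 10 or more counts in each of its 3 libraries, and off when it has 2 or fewer in each. In wild type, 25.5% of the members were on in 24 hpf embryos, 24.2% in 5 dpf heads, 17.5% in 2-month brains, 19.7% in 3-month brains and 20.8% in 18-month brains, while the share over all genes stayed between 56.8% and 64.7%. Among protein-coding genes alone, 42.3% of the members were on at 24 hpf, 40.7% at 5 dpf, 29.2% at 2 months, 32.3% at 3 months and 34.4% at 18 months, against 71.6% to 81.1% of protein-coding genes elsewhere. Those that were on were also low. Their median level in wild type was 1.94 to 2.96 TPM, a level per length of gene scaled to the library total, against 10.2 to 14.9 TPM for all genes that were on. In the 12 groups together, 111 members were on in every group and 839 in none.

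The zinc finger genes of the arm were on most often in the embryo. In wild type 65.3% of them were on at 24 hpf, 31.5% at 5 dpf, 37.1% at 2 months and 40.3% at both 3 and 18 months. The 255 zinc finger genes elsewhere in the genome showed no such drop, with 88.6% to 90.6% on at each stage. Those elsewhere were higher, with a median of 6.77 TPM in wild-type embryos, against 1.59 on the arm. The lowest total count was 25837318 in wild-type embryos, 17061799 in heads, 16274670 at 2 months, 22527508 at 3 months and 22268759 at 18 months. The part of level and depth in the drop was not tested. Of the 356 members that were on in wild-type embryos, 105 were on in no wild-type adult brain without the transgene, and of the 338 that were on in wild-type heads, 93 were on in none. The same counts were not made over all genes.

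**Figure D1:**
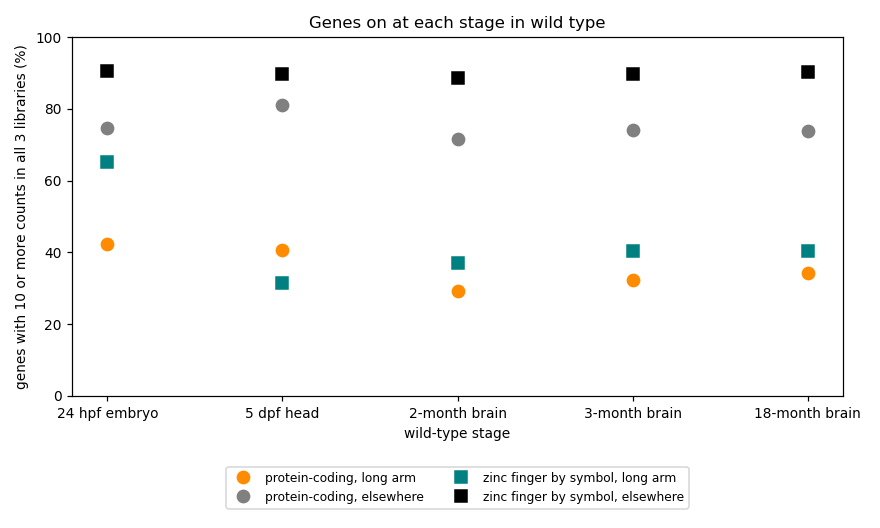
Share of genes with 10 or more counts in all 3 wild-type libraries (vertical axis, %) at each stage (horizontal axis), for protein-coding genes (circles) and genes with a zinc finger symbol (squares), on the long arm and elsewhere. The long-arm zinc finger genes go from 65.3% at 24 hpf to 31.5% at 5 dpf, while the zinc finger genes elsewhere stay near 90% (88.6% to 90.6%).

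The abundant members lie toward the end of the arm, and several are genes that many cell types use. Both gene records named cct2, which encodes a subunit of the TRiC chaperonin that folds tubulin and actin, led in every wild-type stage group. ENSDARG00000104674, the longer record, had 522 ± 14.0 TPM in 24 hpf embryos, 268 ± 9.97 in 5 dpf heads, 280 ± 8.06 at 2 months, 166 ± 4.19 at 3 months and 128 ± 1.75 at 18 months (SD, n = 3 each). The second record, ENSDARG00000087206, had 293 ± 48.7, 261 ± 50.9, 331 ± 23.6, 104 ± 6.57 and 80.6 ± 9.76 TPM in the same order. Both records bear the same symbol and lie close together, so how reads were divided between them is uncertain. rab21, a small GTPase of the early endosome, followed both cct2 records at every stage but 24 hpf, with 37.5 ± 0.372 TPM at 24 hpf, 87.7 ± 2.87 at 5 dpf, 129 ± 4.55 at 2 months, 72.3 ± 4.26 at 3 months and 69.8 ± 3.46 at 18 months. In embryos ckap4 (a membrane protein of the endoplasmic reticulum, 183 ± 4.25 TPM), ENSDARG00000115978 (68.1 ± 7.26) and terfa (a telomere repeat binding protein, 47.0 ± 1.71) lay above it. Others among the 10 highest at 1 or more stages were nup50 (a nuclear pore protein), ttll1 (a tubulin-modifying enzyme), slco1d1 (a member of the organic anion transporters) and rab3ip (an exchange factor for Rab8). ckap4 lies within the span of terfa, so the division of reads between these 2 is uncertain as well. The 10 most abundant members held 27.7% to 39.4% of all member counts in each group.

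In the comparison of stages within one table, the long arm was on balance higher in the embryo than in the adult brain. Of 429 members tested between 24 hpf embryos and 3-month brains of wild type, 224 were higher and 121 lower in embryos (80.4% called, against a percent called of 89.5 over all genes tested, 45.5 higher and 44.0 lower), with a median log2 fold change of 0.63, against 0.04 over all genes. Stage and tissue differ together here, since embryos were whole. The zinc finger genes of the arm leaned further, with 64 of 81 tested higher, 4 lower and a median of 1.81, while those elsewhere had 114 higher and 87 lower of 241 and a median of 0.16. The sign of these medians was the same under RLE and upper-quartile scaling and in DESeq2 (1.68 to 1.81 for the zinc finger genes of the arm).

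ckap4 had 4111, 4279 and 4247 counts in wild-type embryos and 145, 183 and 163 in 3-month brains (log2 fold change 4.61 ± 0.0689 for embryo over brain). ENSDARG00000115978, a gene without a symbol, had 352, 385 and 318 counts in embryos and 0 in each of the 3-month brains. The organic anion transporters of the slco1 cluster went the other way. slco1f3 had 0 counts in each embryo library, against 117, 162 and 132 in 3-month brains, and slco1e1 had 1, 0 and 2, against 188, 177 and 186.

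Larval heads were compared with 2-month brains, in the other set of libraries, and were not compared with embryos. Of 392 members tested between 5 dpf heads and 2-month brains of wild type, 126 were higher and 88 lower in heads (54.6% called, against a percent called of 79.4, 41.2 higher and 38.2 lower). By DESeq2 the split was 154 higher and 54 lower, and by upper-quartile scaling 123 and 108. None of the 54 zinc finger genes of the arm that were tested was higher in heads and 20 were lower (median -0.51), against 51 higher and 91 lower of 234 elsewhere (median -0.18). The genes highest in heads relative to brain included members of the ms4a17a cluster, which encode 4-pass membrane proteins of the MS4A family, and fasn2, which encodes a fatty acid synthase. fasn2 had 85, 177 and 208 counts in wild-type heads and 1, 0 and 0 in 2-month brains. ms4a17a.7 had 225, 193 and 201 counts in heads and 3, 4 and 2 in brains, and ms4a17a.5 had 55, 77 and 88 against 0, 1 and 0.

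Between the adult ages fewer members moved. Of the 429 tested between 18-month and 3-month brains of wild type, 44 were higher and 21 lower at 18 months (15.2%, against a percent called of 27.3, 13.1 higher and 14.2 lower), and the count was 37 without WT replicate 2 of 3 months and 42 without WT replicate 2 of 18 months. mhc2d4b, an MHC class II gene of antigen presentation, was higher at 18 months, with 310, 351 and 214 counts, against 84, 63 and 126 at 3 months (log2 fold change 1.71 ± 0.227 SE, adjusted p = 0.000159 by edgeR). znf1066 was lower, with 2, 1 and 2 counts at 18 months and 10, 15 and 18 at 3 months (-2.98 ± 0.509, adjusted p = 0.001). Other falls were uneven within the 18-month group, whose WT replicate 3 stood apart. si:ch211-76m11.5 had 0, 0 and 85 counts at 18 months, against 263, 345 and 141 at 3 months, and si:ch211-205a14.1 had 3, 1 and 21 against 71, 116 and 54.

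The genotypes were compared next, stage by stage. In 24 hpf embryos 27 members were higher and 50 lower in sgsh of 391 tested (19.7%, against a percent called of 21.7 over all genes, 10.8 higher and 10.9 lower). In DESeq2 the counts were 16 higher and 14 lower. In 5 dpf heads 46 were higher and 106 lower of 416 (36.5%, against a percent called of 14.4, 5.71 higher and 8.67 lower). At 3 months none of 314 passed (percent called 2.89), with 36 at an unadjusted p under 0.05, none in DESeq2, and a smallest adjusted p of 0.0581. At 18 months 8 were higher and 10 lower of 329 (5.47%, against a percent called of 6.72, 4.52 higher and 2.2 lower), and this count ran from 7 to 32 when libraries were left out in turn, with 7 without sgsh replicate 2 or WT replicate 2, 8 without WT replicate 1 and 32 without sgsh replicate 1. At 2 months 3 were higher and none lower of 362 (0.829%, against a percent called of 0.841, 0.354 higher and 0.486 lower), and among Tg brains none of 362 passed by edgeR (percent called 0.0304) or DESeq2, with 9 at an unadjusted p under 0.05. The genotype effect differed between 3 and 18 months for 3 of 354 members (0.847%, against a percent called of 0.126), by an edgeR interaction term, and for 12 in DESeq2. The edgeR count was 0 without sgsh replicate 2, WT replicate 1 or WT replicate 2 of 18 months, 1 without sgsh replicate 3 of 18 months or replicate 1 of either genotype at 3 months, 7 without WT replicate 3 of 18 months and 10 without sgsh replicate 1 of 18 months.

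Set against 25 other units, the 24 other chromosomes and the rest of chromosome 4, the long arm ranked first in the share called in 5 dpf heads. It ranked 20 of 26 in embryos, 10 of 26 at 2 months, 26 of 26 at 3 months and 24 of 26 at 18 months. Among Tg brains the arm tied with every other unit that had no call (0.0%), so it has no rank there. Fold changes of tested members, called or not, were larger than those of all genes. Their median absolute log2 fold change was 0.23 at 24 hpf, 0.54 at 5 dpf, 0.28 at 18 months and 0.27 at 2 months, against 0.12, 0.11, 0.19 and 0.10 over all genes. This also held where no member was called, with 0.18 against 0.11 at 3 months and 0.18 against 0.08 among Tg brains. Genes called with over 4-fold change lay on the arm in 12 of 48 cases at 24 hpf (25.0%, with a percent called of 0.238 over all genes), 30 of 118 at 5 dpf (25.4%, percent called 0.546), 7 of 62 at 18 months (11.3%, percent called 0.308) and 3 of 32 at 2 months (9.38%, percent called 0.162), although the arm held 1.58% to 1.94% of the genes tested. None of the 9 such genes at 3 months was a member (percent called 0.0452), and Tg brains of the 2 genotypes had none (0.0). Members were also counted less deeply, with a median average level of 0.84 log2 CPM at 24 hpf, 0.64 at 5 dpf and 0.45 at 2 months, against 3.46, 3.78 and 3.84 over all genes tested, and the part of low counts in these fold changes was not tested. Among genes of like level, the median biological coefficient of variation was 0.0718 for members and 0.0679 for others at 24 hpf, 0.0916 and 0.0760 at 5 dpf, 0.220 and 0.155 at 2 months, 0.116 and 0.121 at 3 months, and 0.166 and 0.175 at 18 months.

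**Figure D2:**
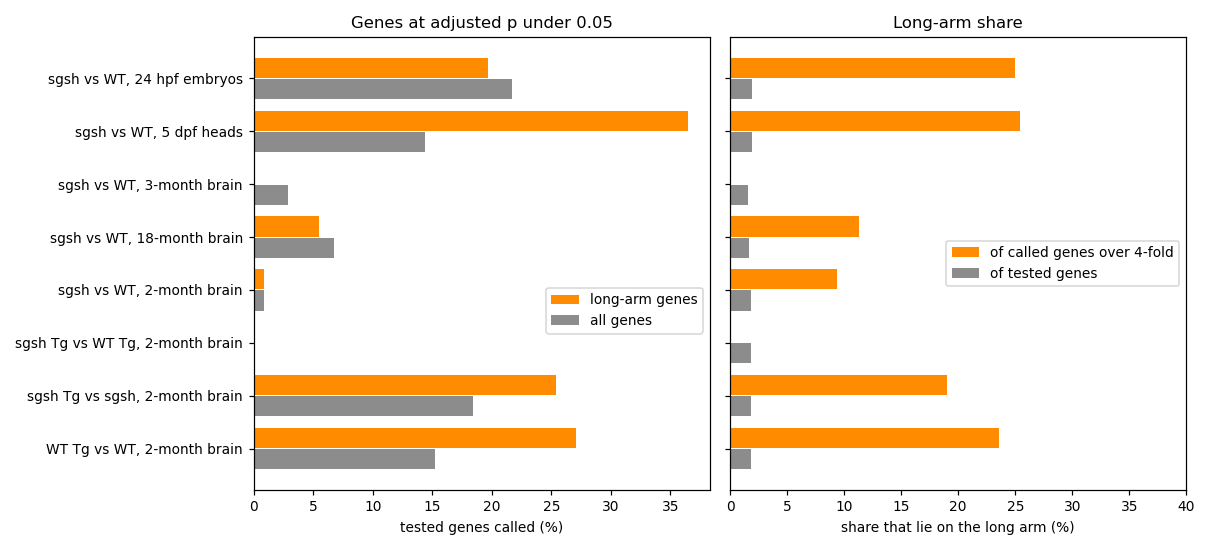
Left, percent of tested genes that passed an adjusted p under 0.05, for long-arm genes (orange) and all genes (gray) in each comparison of genotypes or of transgene. Right, percent of the called genes with over 4-fold change that lie on the arm (orange), beside the percent of tested genes that do (gray). The arm stands above all genes on the left at 5 dpf (36.5% against 14.4%) and in both transgene comparisons (25.4% and 27.1% against 18.4% and 15.2%), and there is no orange bar on the right at 3 months or among Tg brains.

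On-off differences were then counted, in which a gene was off in one group and on in the other. At 24 hpf 7 members met this rule of 9 genes in the whole table (1.85% of the 378 members that were on in either group, against a percent called of 0.0452). At 5 dpf 2 of 10 such genes lay on the arm (0.510%, against 0.0468), and at 18 months 4 of 11 (1.29%, against 0.0556). At 3 months none of the on-off genes, 1 in the whole table (0.00511), lay on the arm, at 2 months none of 7 did (0.0371), and Tg brains of the 2 genotypes had no on-off gene at all (0.0). Between sgsh Tg and sgsh brains 6 of 31 on-off genes were members (2.20%, against 0.164), and between WT Tg and WT brains 3 of 25 were (1.1%, against 0.132). In all, 18 members met the rule somewhere, 16 of them protein-coding and 3 with a zinc finger symbol.

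**Figure D3:**
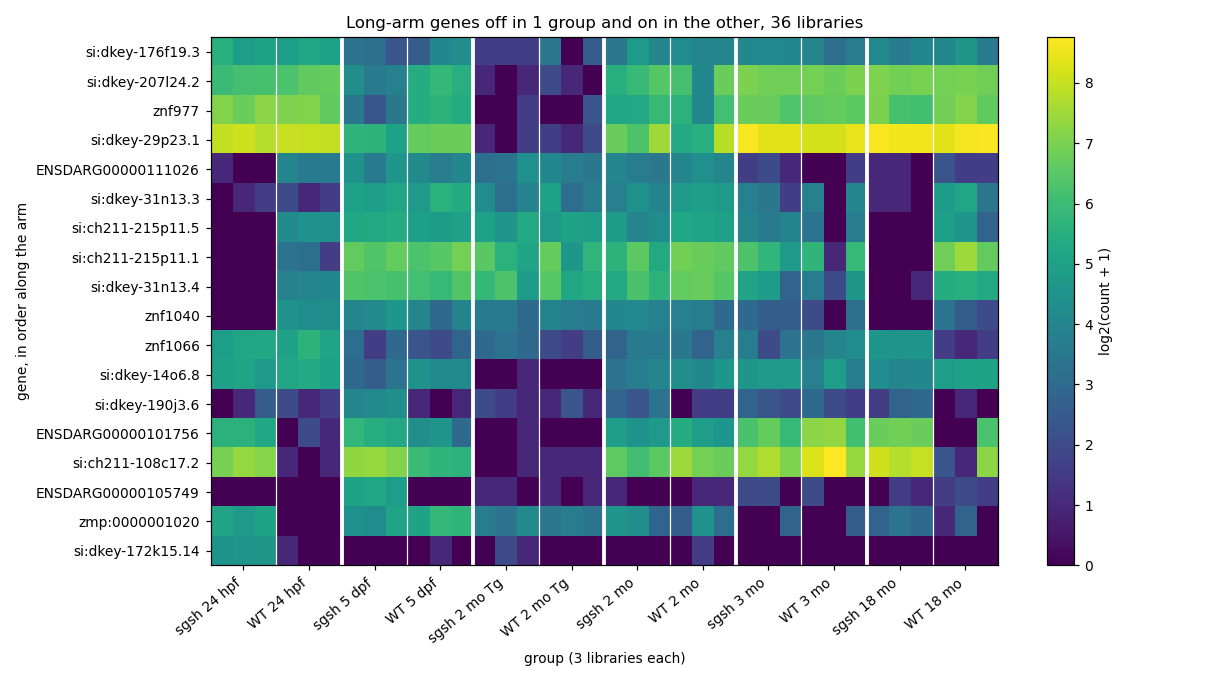
Counts in each of the 36 libraries (columns, in 12 groups of 3) for the 18 members that were off in one group and on in its counterpart in at least 1 comparison, in order along the arm (rows). Color is log2(count + 1), and dark cells are libraries at or near 0 counts, as for znf1040 in the sgsh libraries of 24 hpf and 18 months and for ENSDARG00000101756 in both Tg groups.

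Of the 18, 6 lie together between 46 and 48 Mb, and each of them was off in sgsh and on in wild type at 24 hpf or 18 months. si:dkey-31n13.4 (ENSDARG00000101312, chromosome 4, 46981658 to 47068195) met the rule at 2 ages. It had 0, 0 and 0 counts in sgsh embryos, against 13, 15 and 16 in wild-type embryos (at least 4.81-fold lower, with a floor of 3 counts per library, adjusted p = 6.2e-06). In 18-month brains it had 0, 0 and 1 counts in sgsh and 42, 45 and 39 in wild type (log2 fold change -6.48 ± 0.530, adjusted p = 0.00213). At 5 dpf the same gene was on in both genotypes, with 82, 76 and 73 counts in sgsh heads and 70, 58 and 83 in wild-type heads. It was also on at 2 months (38, 74 and 50 in sgsh, 100, 104 and 86 in wild type), and at 3 months the libraries were uneven, with 34, 28 and 6 counts in sgsh and 12, 3 and 24 in wild type. The sgsh libraries of 24 hpf and 18 months were thus empty of this gene while those of 5 dpf, 2 months and 3 months were not.

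Some of its neighbors were also empty in sgsh libraries of these ages, and others were not. si:ch211-215p11.1 (46890749 to 46915962, with no other gene start between it and si:dkey-31n13.4) had 0, 0 and 0 counts in sgsh 18-month brains, against 114, 178 and 100 in wild type, which is at least 43.5-fold lower (adjusted p = 0.00316). In 3-month brains it had 79, 54 and 25 counts in sgsh and 52, 1 and 58 in wild type, so that here 1 wild-type library was nearly empty. si:ch211-215p11.5, a non-coding transcript, had 0, 0 and 0 counts in sgsh embryos and 17, 21 and 20 in wild type (at least 6.34-fold lower). At 18 months it had 0, 0 and 0 against 30, 23 and 6, and at 3 months 15, 11 and 14 against 9, 0 and 12. si:dkey-31n13.3, which spans both of these genes on one strand, had 1, 1 and 0 counts in sgsh 18-month brains and 27, 35 and 10 in wild type. It overlaps si:ch211-215p11.1 on the same strand and si:ch211-215p11.5 on the other, and since the use of strand in that count table is not stated, the 3 values are not independent and their division is uncertain. In embryos si:dkey-31n13.3 had 0, 1 and 2 counts in sgsh and 3, 1 and 2 in wild type. si:dkey-26m3.3 (46842926 to 47096170), whose span holds si:dkey-31n13.4, kept 5, 7 and 13 counts in sgsh 18-month brains, against 20, 27 and 18 in wild type, and si:ch211-215p11.4 had 6, 6 and 3 against 1, 5 and 8.

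Farther along, znf1040 (47656992 to 47672667), a zinc finger gene, had 0, 0 and 0 counts in sgsh embryos and 21, 18 and 19 in wild-type embryos (at least 6.34-fold lower). ENSDARG00000111026 (46524666 to 46648979) had 1, 0 and 0 against 15, 11 and 11. Both were present in every head library, with 15, 17 and 23 counts of znf1040 in sgsh heads and 15, 7 and 14 in wild-type heads, and neither was called there.

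The stretch from 46 to 48 Mb, whose limits were chosen after these values were seen and which is given without a test, holds 51 members, of which 20 reached 10 counts in some library. In sgsh embryos 13 of the 20 were off, against 6 in wild-type embryos, and in sgsh 18-month brains 14 were off, against none in wild type. A gene could enter the 20 through the group where it was high, and the share over all genes is not given, so these counts only describe the stretch. In heads none was off in sgsh and 1 in wild type, and in 2-month brains 2 were off in either genotype. Counted library by library, 3, 4 and 9 of the 20 had 2 or fewer counts in the sgsh brains of 3 months, and 6, 13 and 7 in the wild-type brains, so WT replicate 2 stood apart there. The summed level of the stretch was 1.60, 1.22 and 1.27 CPM in sgsh 18-month brains, against 15.8, 21.4 and 10.9 CPM in wild type. It was 5.66, 4.30 and 4.23 CPM in sgsh embryos, against 7.14, 7.74 and 8.37 in wild type. In 3-month brains it was 11.3, 9.01 and 4.71 CPM in sgsh and 7.43, 1.79 and 9.05 in wild type. Whether the pooled fish differed in the gene copies that they carry here was not measured.

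1 gene of the stretch ran against its neighbors. crestin, a retroelement-derived transcript used as a marker of the neural crest, had 79, 71 and 66 counts in sgsh embryos, against 13, 23 and 42 in wild type (log2 fold change 1.49 ± 0.245, adjusted p = 0.00011). Its copies may share reads, so the value is uncertain. The pigment cell list (pmela, dct, tyrp1b, mlpha, slc45a2, 5 of 5 found, none at 0), which marks cells derived from the neural crest, summed to 292 to 324 CPM in sgsh embryos and 291 to 300 in wild type. The skeletal muscle list (ckma, mylpfa, myhz2, actc1b, tnnt3b, 5 of 5 found, none at 0) summed to 10400 to 11300 CPM in sgsh embryos and 7650 to 9160 in wild type, and the part of either in these differences was not tested.

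A second place changed the other way in embryos and heads, but not in the brains of 2 and 3 months. ENSDARG00000101756 (a gene with a provisional symbol, at 70842085 to 70849761) and si:ch211-108c17.2 (70850583 to 70883663) have starts 8498 bp apart with no other gene start between them, and both lie within the longer span of si:ch211-127b6.2 (70791887 to 71029208), so the 3 may share reads. si:ch211-108c17.2 had 123, 164 and 143 counts in sgsh embryos, against 1, 0 and 1 in wild type (log2 fold change 7.52 ± 0.344, adjusted p = 3.24e-13), and ENSDARG00000101756 had 49, 49 and 37 against 0, 3 and 1 (4.98 ± 0.439, adjusted p = 1.78e-08). In 5 dpf heads both were on in both genotypes and higher in sgsh, at 156, 169 and 136 against 61, 52 and 49 for si:ch211-108c17.2 (1.51 ± 0.133) and 55, 43 and 38 against 19, 23 and 7 for ENSDARG00000101756 (1.47 ± 0.301). At 18 months ENSDARG00000101756 had 107, 117 and 107 counts in sgsh brains and 0, 0 and 77 in wild type, and si:ch211-108c17.2 had 277, 221 and 252 against 4, 1 and 151. The groups did not overlap, yet WT replicate 3 was closer to sgsh than to its own group, and neither gene passed the edgeR test (adjusted p = 0.204 and 0.16). At 3 months si:ch211-108c17.2 had 163, 209 and 133 counts in sgsh and 312, 432 and 168 in wild type. ENSDARG00000101756 had 74, 103 and 57 against 151, 161 and 68. At 2 months, without the transgene, the counts were 94, 66 and 93 against 177, 121 and 108, and 29, 21 and 26 against 42, 29 and 23. Neither gene was called at these 2 ages.

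WT replicate 3 of 18 months was also the library on which the 18-month on-off count turned. Without it 10 members met the rule in place of 4, of which 5 were on in sgsh (znf1066, si:ch211-127b6.2, ENSDARG00000101756, si:dkey-193i10.3 and si:ch211-76m11.5) and 5 off. Leaving out a library can only keep or raise this count. si:ch211-76m11.5 had 241, 192 and 165 counts in sgsh brains and 0, 0 and 85 in wild type, and si:ch211-127b6.2 had 42, 45 and 44 against 1, 2 and 20. In the stretch from 70 to 72 Mb, which holds these genes and whose limits were likewise set afterwards, the summed level was 57.6, 57.0 and 56.3 CPM in sgsh 18-month brains and 18.8, 18.4 and 39.0 CPM in wild type. Of its 45 members with 10 counts in some library, 17, 16 and 19 had 2 or fewer counts in the 3 sgsh libraries of 18 months, against 32, 35 and 22 in wild type. Here too a gene could enter through the group where it was high, and the share over all genes is not given. In 3-month brains the summed level was 35.3, 49.6 and 36.3 CPM in sgsh and 55.9, 69.2 and 36.9 CPM in wild type. In 2-month brains without the transgene it was 52.2, 55.8 and 58.7 CPM in sgsh and 58.1, 60.3 and 41.9 CPM in wild type. znf1066 lies elsewhere, at 50305577 to 50316818, and was even within groups, with 23, 22 and 23 counts in sgsh 18-month brains and 2, 1 and 2 in wild type (3.71 ± 0.369, adjusted p = 0.00337).

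The same stretch held 19 of the 46 members that were higher in sgsh larval heads. From 70 to 72 Mb 19 of 28 tested members were higher in sgsh heads and none lower (over all genes 5.71% were called higher), and the summed level was 109, 111 and 110 CPM in sgsh heads, against 49.4, 51.1 and 52.7 in wild type. si:dkey-27n6.10 had 232, 259 and 243 counts in sgsh heads and 10, 12 and 12 in wild type (4.42 ± 0.147, adjusted p = 1.97e-09). si:ch211-76m11.5 had 104, 120 and 116 against 11, 10 and 13 (3.31 ± 0.183, adjusted p = 2.01e-07). si:dkey-190j3.6 met the on-off rule, with 15, 17 and 19 counts in sgsh heads and 1, 0 and 1 in wild type. No library of one genotype reached into the range of the other for these 3 genes.

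Just beyond, 3 neighboring gene records were nearly silent in wild-type heads and present in sgsh heads. The pseudogene ENSDARG00000105749 (72486529 to 72488135) had 32, 37 and 29 counts in sgsh and 0, 0 and 0 in wild type (at least 10.8-fold higher). ENSDARG00000105731 (72463842 to 72476526) had 135, 146 and 160 against 3, 5 and 1 (5.56 ± 0.256), and ENSDARG00000105829 (72500840 to 72513569) had 62, 78 and 91 against 2, 2 and 3 (4.98 ± 0.321). These neighboring records may share reads, which leaves their separate levels uncertain.

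**Figure D4:**
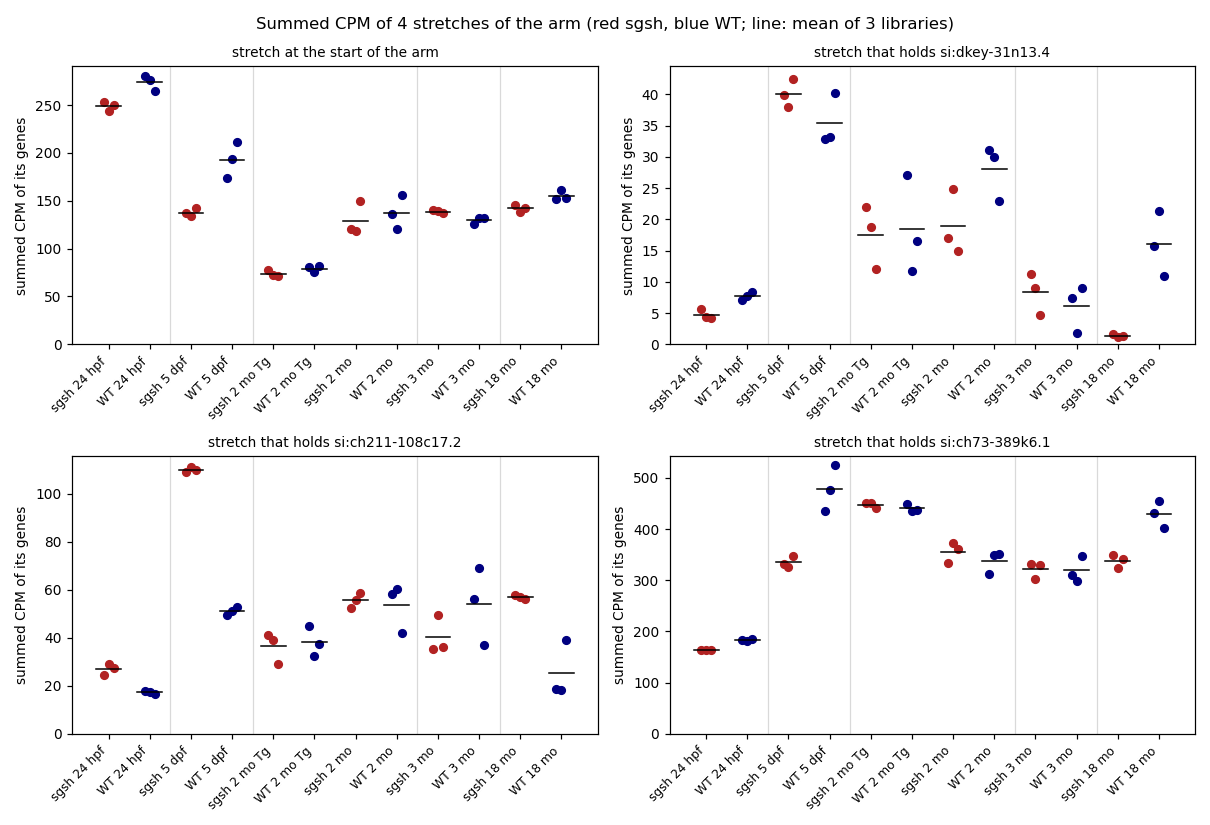
Summed CPM of the members in 4 stretches of the arm (vertical axes, CPM), for each library (points, sgsh red, wild type blue) and the mean of each group of 3 (lines); the stretches were chosen after the values were seen. In the stretch that holds si:dkey-31n13.4 the 3 sgsh libraries of 18 months lie at 1.60, 1.22 and 1.27 CPM, below every other group's mean, and at the start of the arm the 6 Tg libraries lie at 71.2 to 81.8 CPM, below all other libraries.

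Toward the other end of the arm, a stretch from 75 to 77 Mb was mostly lower in sgsh heads. Its limits were also chosen after the values were seen. There 33 of 62 tested members were lower and 2 higher (over all genes 8.67% were called lower). The summed level was 331, 326 and 348 CPM in sgsh heads, against 435, 476 and 525 in wild type. The end itself was mixed, with 3 higher and 6 lower of 38 from 77 to 78 Mb, and 3 higher and 1 lower of 4 from 78 to 79 Mb. Most of the ms4a17a cluster lies between 75 and 77 Mb. Of its 13 members tested at 5 dpf, 8 were lower in sgsh heads and ms4a17a.8 was higher (1.04 ± 0.196). ms4a17a.9 had 179, 183 and 183 counts in sgsh heads and 345, 333 and 340 in wild type (-0.90 ± 0.0713, adjusted p = 5.93e-06). ms4a17a.2 had 16, 11 and 3 against 35, 41 and 49 (-2.04 ± 0.345, adjusted p = 0.00138). Genes of this cluster resemble each other and can share reads, so their separate values are uncertain.

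Other members of known function also moved in heads. fasn2 was lower, with 19, 11 and 13 counts in sgsh heads and 85, 177 and 208 in wild type (-3.43 ± 0.357, adjusted p = 3.82e-05). psmb10, a catalytic subunit of the immunoproteasome, had 183, 161 and 148 counts in sgsh and 253, 279 and 284 in wild type (-0.73 ± 0.0923, adjusted p = 0.000167). mhc2d4b was lower both in heads, with 13, 17 and 21 counts in sgsh and 38, 28 and 45 in wild type (-1.11 ± 0.260), and in embryos, with 11, 11 and 8 against 30, 22 and 20 (-1.23 ± 0.304). Both cct2 records were higher, at 2705, 2838 and 2686 against 2182, 2078 and 2026 for the longer one (0.39 ± 0.0416) and 983, 1045 and 950 against 527, 757 and 749 for the other (0.56 ± 0.0982). Of the 53 zinc finger genes of the arm tested in heads, 2 were higher and 9 lower. Those elsewhere had 13 higher and 6 lower of 236. Of the 83 tested in embryos 1 was higher and 9 lower, against 17 higher and 37 lower of 235 elsewhere. By DESeq2 the zinc finger genes of the arm had 0 higher and 6 lower in heads, but 1 higher and 0 lower in embryos. The lean to lower in embryos was thus also present elsewhere and depended on the method. The epidermis list (krt4, krt5, cldnb, epcam, 4 of 4 found, none at 0) summed to 9840 to 10900 CPM in sgsh heads and 7600 to 8350 in wild type, and the microglia list (5 of 5 found, none at 0) to 648 to 707 against 773 to 868, and the part of either in the changes of heads was not tested.

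In embryos 2 further places held on-off genes. zmp:0000001020 (74396786 to 74418041) had 34, 26 and 32 counts in sgsh embryos and 0, 0 and 0 in wild type (at least 10.4-fold higher), but 20, 18 and 34 counts in sgsh heads against 32, 56 and 52 in wild-type heads, where it was called lower (-0.95). si:dkey-172k15.14 (77136884 to 77140030) had 21, 23 and 24 counts in sgsh embryos and 1, 0 and 0 in wild type, and had no more than 3 counts in any library of another stage. 3 records nearby were higher as well. zgc:173770 had 38, 38 and 34 counts in sgsh embryos against 2, 2 and 3 in wild type (3.93 ± 0.363), si:dkey-172k15.17 had 14, 17 and 12 against 0, 3 and 3 (2.79 ± 0.524), and ENSDARG00000095486 had 54, 43 and 37 against 5, 7 and 8 (2.75 ± 0.298).

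**Figure D5:**
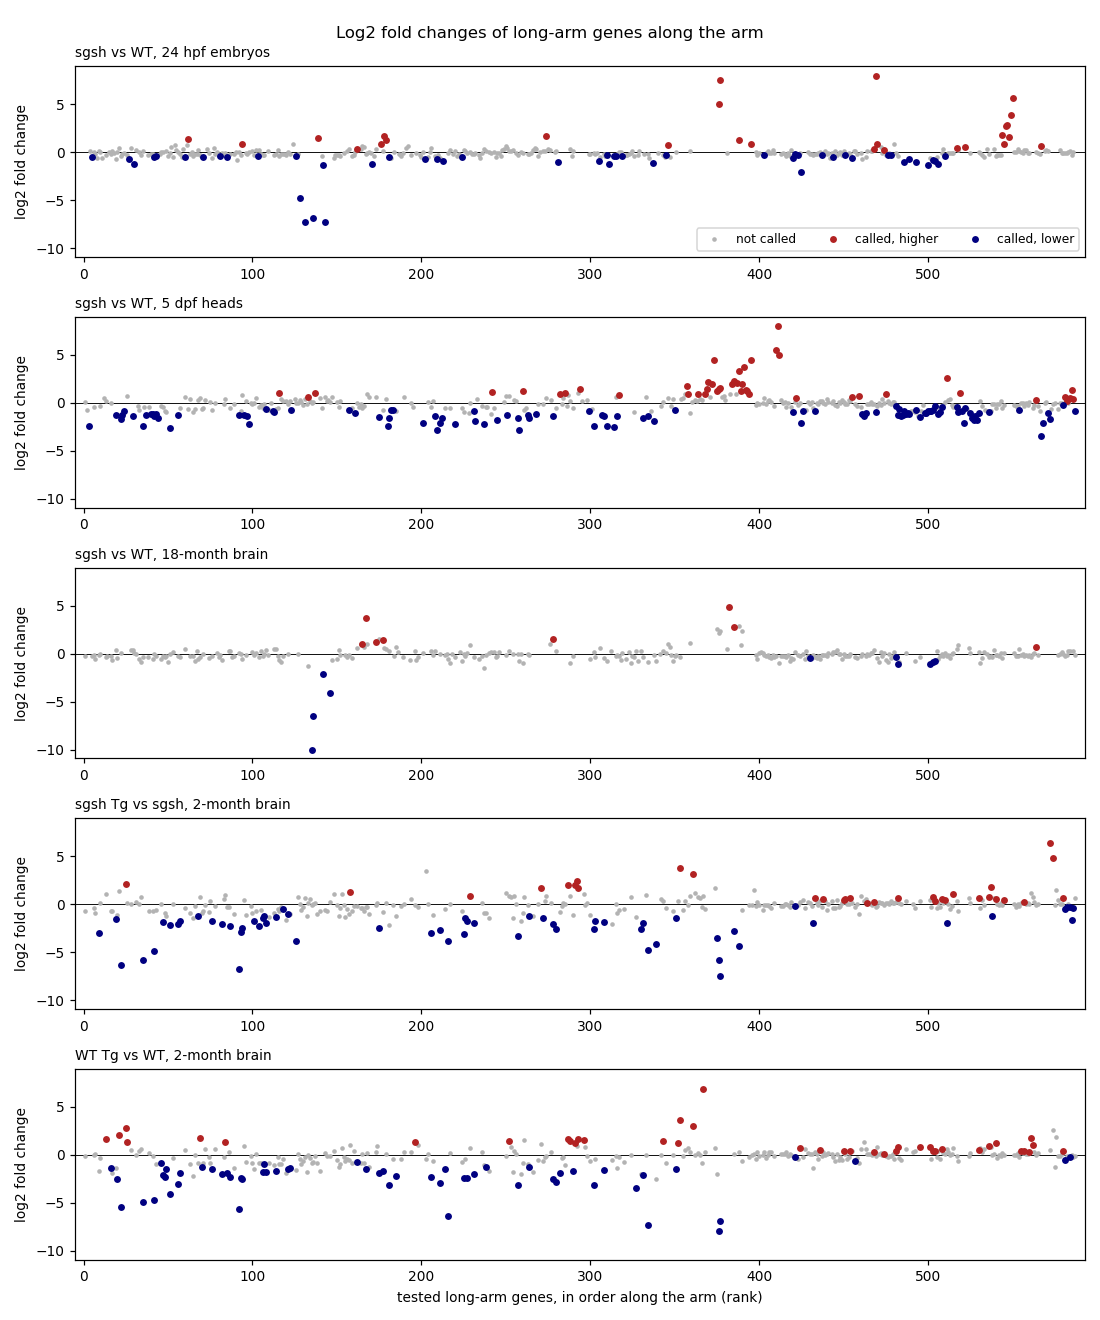
Log2 fold change (vertical axes) of each tested long-arm gene, in order along the arm (horizontal axes, rank), in 5 comparisons, with genes that passed an adjusted p under 0.05 in red where higher and in blue where lower. In sgsh heads of 5 dpf 19 of the 46 higher genes lie in 1 block between 70 and 72 Mb (28 tested there). The other higher genes lie elsewhere along the arm, and lower genes lie on both sides of the block. In both transgene comparisons most called genes of the first part of the arm are lower.

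Few members changed the same way at several stages. Over the 6 genotype comparisons 213 members were called in at least 1, 27 in at least 2 and 4 in at least 3 with the same direction, which is 36.2%, 4.59% and 0.680% of the 588 members tested anywhere, against 33.0%, 4.13% and 0.425% over all genes. The 3 comparisons at 24 hpf, 5 dpf and 18 months use separate libraries. si:ch211-205a14.1 was higher in sgsh at 5 dpf (2.33), 18 months (2.79) and 2 months (2.58), and si:ch211-76m11.5 was higher at 24 hpf (1.30), 5 dpf (3.31) and 2 months (5.81). In 2-month brains si:ch211-76m11.5 had 93, 73 and 137 counts in sgsh and 2, 3 and 0 in wild type (adjusted p = 0.000168). At 3 months it did not pass, with 147, 257 and 140 counts in sgsh and 263, 345 and 141 in wild type. si:ch73-389k6.1 was lower at 24 hpf (-0.86), 5 dpf (-0.73) and 18 months (-0.89), and so was zgc:171673 (-0.92, -0.32 and -0.82). These 2 genes are neighbors, at 76304911 to 76335199 and 76336061 to 76348088.

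The third gene called at 2 months was si:dkey-52l1.1, with 61, 51 and 131 counts in sgsh and 18, 6 and 23 in wild type (2.36 ± 0.483, adjusted p = 0.0403). At 18 months slco1d1 was higher, with 788, 934 and 927 counts in sgsh and 548, 541 and 585 in wild type (0.71 ± 0.0893, adjusted p = 0.00649), and it was also higher in sgsh heads (0.29 ± 0.0590). The pigment cell list was higher in the sgsh brains without the transgene. In 2-month brains it summed to 22.6 to 27.8 CPM in sgsh and 11.6 to 13.5 in wild type. The sums were 21.8 to 34.3 CPM in sgsh and 4.16 to 4.60 in wild type in 3-month brains, and 18-month brains had 13.7 to 19.5 CPM in sgsh fish, against 1.73 to 2.86 in wild type. The part of pigment cells in the changes of the arm was not tested.

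The arm as a whole took a small share of all counts. It was 0.195% ± 0.000316 in sgsh and 0.201% ± 0.000733 in wild-type embryos (SD, n = 3 each), 0.191% ± 0.0028 and 0.210% ± 0.0105 in heads, 0.167% ± 0.00238 and 0.175% ± 0.00125 at 3 months, and 0.174% ± 0.00569 and 0.188% ± 0.00396 at 18 months. In these 4 comparisons the 3 sgsh libraries all lay below the 3 wild-type libraries, with an exact two-sided permutation p of 0.1 each, the smallest that 3 against 3 can give, and 0.2 after adjustment over the 8 comparisons made. At 2 months the groups overlapped, with 0.201% ± 0.00457 in sgsh and 0.199% ± 0.00182 in wild type (exact permutation p = 0.6), and 0.197% ± 0.00337 in sgsh Tg and 0.198% ± 0.00319 in WT Tg (p = 1.0 by the same exact test).

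Brains with and without the transgene were compared within each genotype. The sources used here do not say whether Tg fish and the others came from the same families. Family, with the gene copies it carries, and the transgene therefore cannot be told apart in what follows. In sgsh Tg brains 32 members were higher and 60 lower than in sgsh brains of 362 tested (25.4%, against a percent called of 18.4 over all genes, 8.85 higher and 9.51 lower, and 21.5% on the rest of chromosome 4). In WT Tg brains 40 were higher and 58 lower than in WT brains (27.1%, against a percent called of 15.2, 6.79 higher and 8.45 lower, and 20.8% on the rest of the chromosome). The arm ranked first of the 26 units in both. Genes called with over 4-fold change lay on the arm in 37 of 195 cases between sgsh Tg and sgsh brains (percent called 0.987) and 34 of 144 between WT Tg and WT brains (percent called 0.729), and 30 and 29 of them were lower in Tg. The 4 groups share 1 fit but no library between the 2 comparisons. The members called in both in the same direction numbered 57 (18 higher, 39 lower), which is 62.0% of the members called in sgsh and 58.2% of those called in wild type, and none was called in opposite directions. Over all genes the shared calls were 47.7% and 57.5%. The test of a difference between these 2 comparisons called no member (percent called 0.127), with 23 at an unadjusted p under 0.05 and 1 in DESeq2.

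The pair ENSDARG00000101756 and si:ch211-108c17.2, higher in sgsh embryos, was nearly empty in Tg brains. si:ch211-108c17.2 had 0, 0 and 1 counts in sgsh Tg brains, against 94, 66 and 93 in sgsh brains (-7.51 ± 0.497, adjusted p = 2.08e-06), and 1, 1 and 1 in WT Tg brains, against 177, 121 and 108 in WT brains (-6.89 ± 0.403, adjusted p = 8.31e-07). ENSDARG00000101756 had 0, 0 and 1 against 29, 21 and 26 in sgsh, and 0, 0 and 0 against 42, 29 and 23 in wild type, where it was at least 10.3-fold lower. All 6 Tg libraries had 0 or 1 counts of either gene, about as few as the wild-type embryos.

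Of the other 5 on-off losses in Tg, 4 lay nearer the start of the arm. si:dkey-29p23.1 (43648421 to 43676582) had 1, 0 and 2 counts in sgsh Tg brains, against 107, 79 and 183 in sgsh brains (-6.76 ± 1.04, adjusted p = 0.00068), and 2, 1 and 3 in WT Tg brains, against 40, 44 and 227 in WT brains (-5.60 ± 0.946, adjusted p = 0.00178). znf977 (39055027 to 39069529), a zinc finger gene, had 0, 0 and 2 against 36, 38 and 57 in sgsh, and 0, 0 and 4 against 48, 16 and 70 in wild type. si:dkey-207l24.2 (37760928 to 37766174) had 1, 0 and 1 against 44, 60 and 87, and 3, 1 and 0 against 71, 16 and 106. For these genes the Tg libraries never reached the lowest library without the transgene, although the WT brains themselves differed several-fold. si:dkey-176f19.3 met the rule in sgsh, with 2, 2 and 2 counts in Tg and 10, 25 and 15 without, but not in wild type, with 10, 0 and 5 against 18, 15 and 15. si:dkey-14o6.8 had 0, 0 and 0 counts in WT Tg brains and 19, 16 and 24 in WT brains (at least 6.50-fold lower), and 0, 0 and 1 in sgsh Tg brains against 9, 12 and 15 in sgsh brains.

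The stretch from 35 to 46 Mb, chosen after its values were seen, holds 322 members, and its summed level was 77.9, 72.9 and 71.2 CPM in sgsh Tg brains, against 120, 118 and 150 in sgsh brains, and 80.5, 75.2 and 81.8 in WT Tg brains, against 136, 121 and 156 in WT brains. It was also lower in sgsh heads at 5 dpf, with 137, 134 and 142 CPM against 174, 194 and 211. In embryos it was 253, 244 and 250 CPM in sgsh against 280, 276 and 265. At 18 months it was 146, 138 and 142 CPM in sgsh against 152, 161 and 153. At 3 months it was higher in sgsh, with 140, 139 and 137 CPM against 126, 132 and 132. Of the zinc finger genes of the arm, 13 were lower and 6 higher of 69 in sgsh Tg brains (median log2 fold change -0.54). In WT Tg brains 18 were lower and 7 higher (-0.46). The zinc finger genes elsewhere had 15 lower and 11 higher of 233 in sgsh Tg brains (median -0.02). In WT Tg brains 10 of these were lower and 17 higher (0.05). These signs held under the other scalings for the genes of the arm, with medians of -0.31 to -0.56 and -0.46 to -0.48. 25.8% of the zinc finger genes of the arm were on in sgsh Tg brains and 25.0% in WT Tg brains, against 36.3% and 37.1% in sgsh and WT brains without the transgene. Of those elsewhere, 89.8% were on in both Tg groups, against 89.4% in sgsh and 88.6% in WT brains.

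Some members were higher in Tg. si:dkey-237g15.2 (68475654) had 143, 224 and 250 counts in sgsh Tg brains against 8, 13 and 23 in sgsh brains (3.82 ± 0.395), and 105, 238 and 195 in WT Tg brains against 12, 10 and 22 in WT brains (3.62 ± 0.399). si:ch73-389k6.1 and zgc:171673, the 2 genes that were lower in sgsh at 3 stages, were higher in Tg in both genotypes (0.71 and 0.34 in sgsh, 0.43 and 0.44 in wild type). si:dkey-238k10.1 varied within groups, with 2, 278 and 150 counts in sgsh Tg brains against 2, 3 and 0 in sgsh brains, and 0, 91 and 108 in WT Tg brains against 49, 45 and 44 in WT brains.

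The 39 members that were lower in both transgene comparisons were then read in the comparisons of other libraries, a step taken after the values were seen. Of the 35 tested in 5 dpf heads, 17 were lower in sgsh than in wild type and 4 higher, which is 48.6% of those tested and 16.0% of the members lower in heads. Of all 416 members tested in heads 106 were lower, and of the 14 tested members that were higher in both transgene comparisons 7 were lower (50.0%) and none higher. Of all genes that were lower in both transgene comparisons, 10.1% of those tested were lower in heads. znf977, for example, had 10, 4 and 10 counts in sgsh heads and 42, 50 and 41 in wild-type heads, and si:dkey-207l24.2 had 19, 11 and 13 against 42, 56 and 44. In embryos 2 of 35 were lower and 3 higher in sgsh, and at 18 months none of 39 was lower and 1 higher. Over all genes that were lower in both transgene comparisons, 18.4% were lower and 11.3% higher in embryos. At 18 months 0.965% of these were lower and 11.1% higher. Of the members that were higher in both transgene comparisons, 2 of 12 were lower and 1 higher in embryos. At 18 months 3 of 13 were lower and none higher.

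Some marker lists differed between Tg brains, or some of their libraries, and brains without the transgene. The skeletal muscle list summed to 316, 38.5 and 1150 CPM in sgsh Tg brains and 235, 953 and 21.0 in WT Tg brains, against 30.5 to 83.6 in sgsh and 33.1 to 113 in WT brains, with none of its 5 genes at 0. The oligodendrocyte list (6 of 6 found, none at 0) summed to 13300 to 15200 CPM in sgsh Tg and 8480 to 9830 in sgsh brains, and to 12100 to 13700 in WT Tg and 10500 to 11300 in WT brains. The radial glia list (5 of 5 found, none at 0) summed to 2980 to 3140 CPM in sgsh Tg and 3110 to 3870 in sgsh brains. In WT Tg it was 2810 to 3040, against 3990 to 4090 in WT brains. The red blood cell list (6 of 6 found) summed to 419 to 484 in sgsh Tg against 753 to 886 in sgsh brains, and 380 to 612 in WT Tg against 713 to 1270 in WT brains. Of this list hbae1.1 was at 0 in each group, and hbae3 in all but sgsh brains. The number of members called was 61 without sgsh Tg replicate 3, and 58 without WT Tg replicate 2, 60 without WT replicate 1 and 64 without WT Tg replicate 3. The part of tissue makeup in the changes of Tg brains was not tested.

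States of long-arm genes also differed more widely across the series than those of other genes. Of the 557 members on in at least 1 of the 12 groups, 245 were off in another (44.0%), against 14.7% of all genes. Among the 8 groups of adult brain it was 69 of 377 (18.3%), against 2.90%, and among the 5 wild-type groups without the transgene 23.9%, against 11.2%. Within single groups, 1.07% to 7.14% of the members that reached 10 counts in some library had 2 or fewer in another of the same group, against 0.204% to 1.06% of all genes. The part of their lower level in these shares was not tested. With a bar of 30 counts, the members that crossed within a group were few, between 0 and 3 per group. They included ENSDARG00000101756, si:ch211-108c17.2 and si:ch211-76m11.5 in WT brains of 18 months, si:ch211-215p11.1 in WT brains of 3 months, and si:dkey-238k10.1 in both Tg groups.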

How the data were processed

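Per the labels and the study's methods, total RNA was extracted with TRIzol and sequenced as 150 bp paired reads. The deposited values are raw counts per gene that the authors made from mapped reads. The table of 24 hpf, 3 months and 18 months does not state its use of strand, and the files of 5 dpf and 2 months name featureCounts 2.0.1, which counted reads on the reverse strand when their mapping quality was 10 or more. The submitters' processing notes list GRCz11, HISAT2, Bowtie2 and RSEM. Total counts ran from 16200025 to 26038889 per library, which limits what can be seen of genes with few counts.

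From these counts, edgeR 4.0.16 (R 4.3.3) was fitted to all genes that passed filterByExpr (minimum count 10, minimum total 15), with TMM normalization, quasi-likelihood tests and Benjamini-Hochberg adjustment over all genes tested, at 0.05. Values after ± are standard errors of log2 fold changes unless SD is named. Each was computed from the fold change and the F statistic of its test, and was not fitted. Where a group was empty or nearly so, it does not give the precision of the fold. Each stage and genotype comparison was fitted within 1 set of libraries, the 4 groups of 2 months together. TPM was computed from the counts and the gene lengths in the files. DESeq2 1.42.0, other scalings, filters, a replicate block and leaving out each library were alternatives. The fit was tested on simulated data, where 94.7% of 2-fold changes were recovered at 3 months, 98.9% at 2 months and 100% at 24 hpf. Changes were set only in genes with higher counts, so this test does not cover members with few counts. Shares of counts were compared with exact permutation tests, and a fold against 3 empty libraries is a bound from 3 counts per library.

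Genes were named by a rule: on-off members, the 10 called members with the largest change in each comparison, members called in 3 comparisons, and the most abundant; others were chosen after their values were seen. The members and the gene lists were chosen with earlier results of these data known. Replicates are separate pools by their labels, but nothing says that they came from separate families, so p-values measure the spread between these pools. Same-numbered libraries deviated together weakly at most. Their correlations were 0.04 to 0.12 at 5 dpf, where each library matched best with its own number. They were 0.03 to 0.12 at 3 months and 0.03 to 0.06 at 2 months without the transgene. In each other comparison the lowest such correlation was negative. No 2 libraries were duplicates. Domain counts of the proteins were planned and not made, and no sequences are shown.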

Additional observations from a re-analysis of the deposited data

Results flagged for a closer look

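The genotype effect differed between 3 and 18 months for 3 of 354 members tested (0.847%, against 0.126% over all genes), by an edgeR interaction term. For znf1066 the difference in log2 fold change, 18 months minus 3 months, was 4.51 ± 0.630 (adjusted p = 0.0196). For si:dkey-31n13.4 it was -7.30 ± 1.21 (adjusted p = 0.0421), and for si:ch211-266c8.1, which had 880, 807 and 796 counts in sgsh 18-month brains and 1771, 1986 and 1641 in wild type, it was -1.25 ± 0.206 (adjusted p = 0.0421). DESeq2 called 12 members for this difference, and with libraries left out in turn edgeR called 0 to 10.

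6 members were called in opposite directions in 2 comparisons of sgsh with wild type. They are 1.02% of the 588 members tested in any of these comparisons, against 3.11% over all genes. The difference between the stages was not tested. For 4 of them, called at 24 hpf and 5 dpf, the genotypes did not overlap at either stage. ms4a17a.7 had a log2 fold change of 0.52 at 24 hpf and -0.53 at 5 dpf, and ms4a17a.11 had 0.47 and -0.39. fasn2 had 0.60 at 24 hpf and -3.43 at 5 dpf, and si:cabz01032454.3 had -0.58 and 0.62. For the other 2 the genotypes overlapped in heads. zmp:0000001020 was higher in sgsh at 24 hpf and lower in heads (-0.95), and ENSDARG00000090734 had -1.40 in heads and 1.49 at 18 months. The tissue differs between these stages, whole embryos at 24 hpf, heads at 5 dpf and brains at 18 months.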

How the results depend on the processing

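Of the alternative values of counts of calls, on-off counts and shares, 263 stayed within their limits and 44 moved, and of 110 results for named genes 86 kept their direction and side of the threshold in every alternative run and none reversed. DESeq2 called 30 members at 24 hpf (16 higher, 14 lower, against 27 and 50 in edgeR), 1 for genotype by transgene (against 0), 12 for genotype by age (against 3) and 34 between WT brains of 18 and 3 months (against 65). With a replicate block the count was 2 at 3 months (against 0), 8 at 18 months (against 18) and 1 for genotype by age. Same-numbered libraries had correlations of 0.03 to 0.12 at 3 months and -0.25 to -0.0 at 18 months. At 5 dpf alone each library matched best with its own number, with correlations of 0.04 to 0.12. Fitting the 6 libraries alone gave 59 members between sgsh Tg and sgsh brains (against 92). Requiring 0 counts for off left 4 on-off members at 24 hpf, 1 at 5 dpf, 1 at 18 months and 0 between sgsh Tg and sgsh brains, and requiring 20 for on left 3 at 24 hpf and 1 at 5 dpf. Starting the arm at 30000000 gave a difference in share of counts at 24 hpf of -0.00734 percentage points (against -0.00617). Leaving out each library in turn gave 56 to 69 members called at 24 hpf, 110 to 160 at 5 dpf, 0 to 2 at 3 months, 7 to 32 at 18 months, 1 to 3 at 2 months, 0 among Tg brains and for genotype by transgene, 61 to 83 and 58 to 89 for the transgene in sgsh and in wild type, and 0 to 10 for genotype by age. For stages it gave 343 to 354 (24 hpf and 3 months), 188 to 239 (5 dpf and 2 months) and 37 to 63 (18 and 3 months). On-off counts ran from 7 to 9 at 24 hpf, 2 to 4 at 5 dpf, 0 at 3 months, 4 to 10 at 18 months, 0 to 1 at 2 months, 0 among Tg brains, and 7 to 8 (against 6) and 3 to 7 for the transgene in sgsh and wild type. The on-off rule must hold in each library, so leaving one out can only keep or raise a count. These ranges therefore cannot show a fall. Differences in share ran from -0.00639 to -0.00574 at 24 hpf, -0.0244 to -0.0143 at 5 dpf, -0.00849 to -0.00635 at 3 months, -0.0160 to -0.0109 at 18 months, -0.000393 to 0.00406 at 2 months, -0.00316 to -8.46e-05 among Tg brains, and -0.00605 to -0.00159 and -0.00190 to 0.00106 for the transgene in sgsh and wild type. The causes of these shifts were not tested. Counts of most members are low: 588 of the 1396 passed the filter in at least 1 genotype comparison, and differences in the rest were not detectable at this depth.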
